A study of Mus musculus with 2 samples.

Results

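The genes that sense double-stranded RNA and carry the type I interferon response were compared between siCPEB1-transfected and siControl-transfected Neuro2a cells, a mouse neuroblastoma line. The list holds 48 genes, taken by symbol: 4 RNA sensors, 16 signalling genes and 28 interferon-induced effectors. Of these, 47 had at least 1 Affymetrix probe set annotated to that gene alone, out of 18193 genes with such a probe set on the array, and together they had 82 probe sets. Ddx58 (RIG-I) and Tmem173 (Sting1 in the newer annotation) were found by gene identifier. The remaining gene, Isg15, was represented only by a probe set annotated also to Gm9706, so no value was assigned to it.

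The siControl cells received a control siRNA and the siCPEB1 cells a Stealth siRNA designed against the Cpeb1 coding region. Both were transfected with Lipofectamine RNAiMAX and labelled as 24 h of treatment, and both groups therefore carry transfected siRNA. Untransfected cells are not part of the comparison. Each condition was measured on 1 Mouse Genome 430 2.0 array, so no test between the conditions is possible, no p-value is given, and every ratio describes these 2 arrays.

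Long double-stranded RNA is recognised in endosomes by TLR3 and in the cytoplasm by RIG-I and MDA5. These sensors signal through the adaptors TICAM1 and MAVS to the kinase TBK1 and the factors IRF3 and IRF7, which induce interferon beta. Secreted interferon binds IFNAR1 and IFNAR2, and through TYK2, JAK1, STAT2 and IRF9 it switches on antiviral effector genes that carry an interferon-stimulated response element (ISRE) near their start site.

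The ISRE core was therefore looked for in the RefSeq promoter windows of the members (GRCm38.p6, 250 bases before to 50 bases after a start site), as the letters GAAANNGAAA on either strand, with overlapping matches counted separately. A window was at hand for 41 of the 48 genes, and 17 of them (41.5%) held the core, against 3.99% of 27025 genes with a window. The core stood in the windows of 13 of 23 effectors, 2 of 15 signalling genes and 2 of 3 sensors. The STAT-type site TTCNNNGAA, whose letters read the same on both strands, was in the windows of 12 of the 41 members (29.3%) and of 9.55% of all genes. In Bst2 a STAT-type site overlaps the first ISRE core. A match describes the letters of the window and does not show that a factor binds there.

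The stretches below, from upstream of the start site and 5′ to 3′ in the direction of the gene, are shown because they set members that were more than 2-fold higher in siCPEB1 beside members with the same core that were not. Capitals mark the bases of each ISRE core. The first 3 genes were more than 2-fold higher by their signals, and the last 4 were within 2-fold. For Gbp2, however, the siControl signal lay below the array median, so it is known only as at least 1.79-fold higher.
Gbp2, chr3:142620589-142620628, plus strand: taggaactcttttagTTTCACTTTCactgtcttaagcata
Gbp3, chr3:142559984-142560029, plus strand: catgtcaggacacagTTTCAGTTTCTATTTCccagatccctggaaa
Trim30a, chr7:104465205-104465244, minus strand: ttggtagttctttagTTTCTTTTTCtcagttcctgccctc
Ifit1, chr19:34640770-34640828, plus strand: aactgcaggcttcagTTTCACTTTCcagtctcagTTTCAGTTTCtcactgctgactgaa
Ifit3, chr19:34583358-34583431, plus strand: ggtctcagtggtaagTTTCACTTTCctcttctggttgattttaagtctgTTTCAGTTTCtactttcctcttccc
Oas1a, chr5:120907526-120907560, minus strand: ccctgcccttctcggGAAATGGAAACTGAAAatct
Bst2, chr8:71537572-71537617, minus strand: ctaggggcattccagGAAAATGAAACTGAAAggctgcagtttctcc

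Signals are the deposited MAS5 values on a linear scale, whose array medians were 21.0 in siControl and 21.6 in siCPEB1. The log2 ratio is siCPEB1 over siControl. To pass the signal filter, a probe set had to lie at or above the array median in one condition or both and never under the 25th percentile. It was called higher or lower when it also differed by more than 2-fold. For a gene, 1 probe set was used, the brightest that passed the filter, with those named by the manufacturer as reading several transcripts (_s_at or _x_at) taken last. The spread that the arrays themselves allow is the SD of log2 ratios between probe sets of the same gene, which was 0.37 over 5531 genes and went from 0.58 among the dimmest of 5 signal bins to 0.24 among the brightest. It holds no spread between cultures. For the 18 hybridization controls, which are spiked equally into both samples, log2 ratios averaged -0.13 (SD 0.075), and the 3-prime over 5-prime ratio of Gapdh was 0.798 in siControl and 0.782 in siCPEB1. The signal of Cpeb1, against which the siRNA is directed, was 7.86-fold lower, at 302 in the siControl and 38.5 in the siCPEB1 array.

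Of the 47 genes, 45 passed the signal filter. Of these, 7 were more than 2-fold higher in siCPEB1 (Tlr3, Dhx58, Gbp2, Gbp3, Trim30a, Parp14 and Samd9l), and 2 were lower (Ifngr2 and Oasl1). Over the array, 4.96% of the 11554 genes that passed the filter were called higher and 3.45% lower. By probe sets, 9 of the 74 of the members that passed were higher and 2 were lower, against 4.49% higher and 4.04% lower of all 23655 that passed. The median log2 ratio over the 47 genes was 0.28, and over all 18193 genes, with no filter, it was 0.059. A log2 ratio above 0 was found for 28 of the 47 members (59.6%) and for 53.9% of all genes. The members were not uniform: the 4 RNA sensors lay on the higher side, the signalling genes lay around 0 with the interferon gamma receptor on the lower side, and the effectors ranged from 2.55-fold lower (Oasl1) to 3.12-fold higher (Trim30a), with Gbp2 aside because its siControl signal was too dim for more than a bound.

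**Figure D1:**
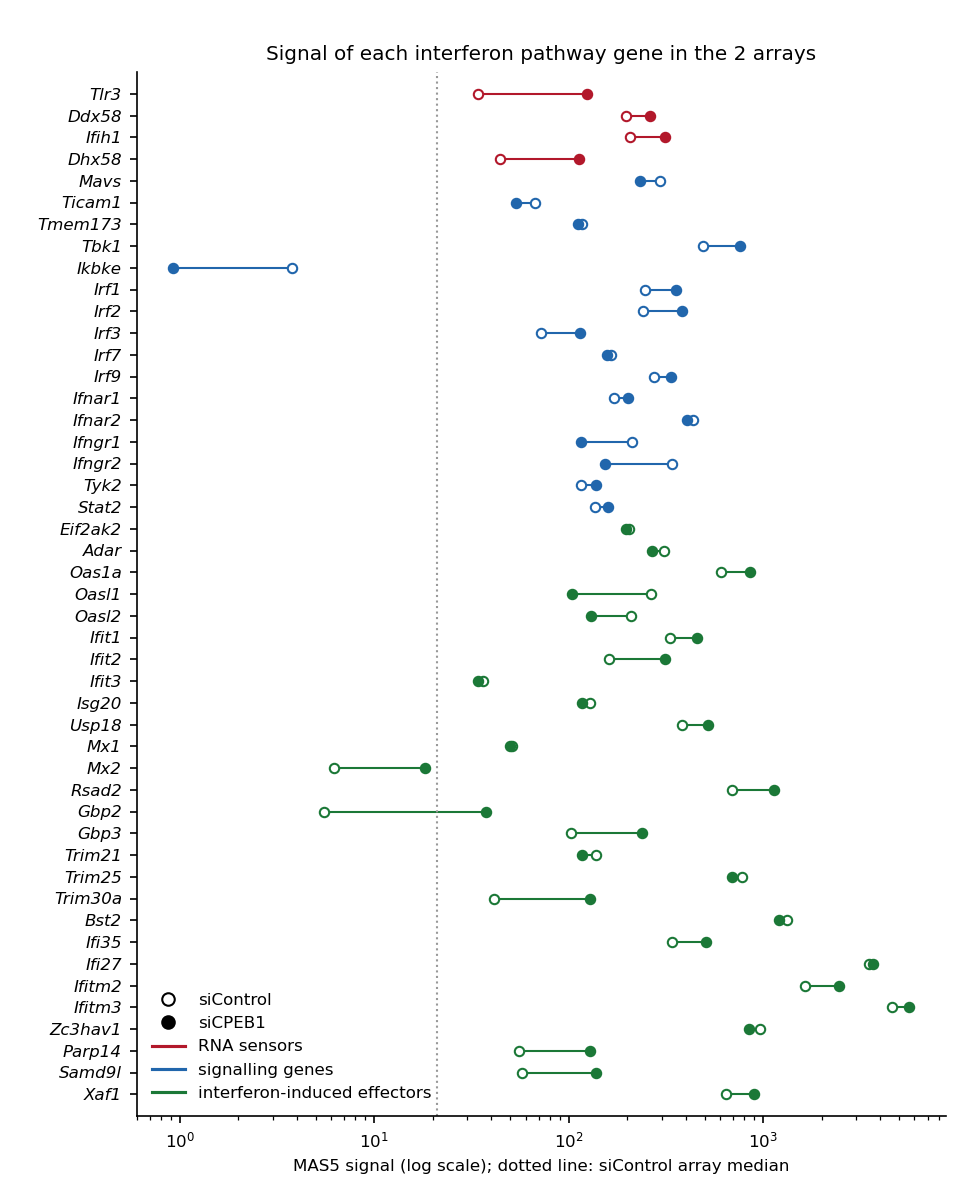
MAS5 signal on a log axis of the probe set used for each of 47 genes, in siControl (open circles) and siCPEB1 (filled circles), coloured by role, with the siControl array median of 21.0 as a dotted line. The long lines to the right are those of Tlr3, Dhx58, Gbp2, Gbp3, Trim30a, Parp14 and Samd9l, while Ikbke, Mx2 and the siControl signal of Gbp2 lie left of the dotted line.

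All 4 RNA sensors had a higher signal in siCPEB1 at the probe set used. Tlr3, the endosomal receptor for double-stranded RNA, had signals of 34.1 in siControl and 125 in siCPEB1 (3.65-fold, log2 ratio 1.87). Its other probe set went from 37.1 to 118 (log2 ratio 1.66). Both ratios are more than 4 times the SD of 0.40 between probe sets of a gene at this signal. The promoter window of Tlr3 held neither the ISRE core nor the STAT-type site.

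Dhx58 encodes LGP2, a helicase that regulates the RIG-I-like receptors without signalling on its own. Its brightest probe set went from 44.1 to 113 (2.56-fold, log2 ratio 1.36). The other probe sets gave less, from 31.4 to 39.9 (log2 ratio 0.35) and, below the filter, from 8.73 to 12.6. The 2-fold call of Dhx58 thus rested on 1 of 3 probe sets, and with the mean of the probe sets that passed the log2 ratio was 0.85.

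Ifih1, which encodes the cytoplasmic sensor MDA5, had signals of 207 and 313 (log2 ratio 0.60, with a spread of 0.29). Ddx58, which encodes RIG-I, had signals of 197 and 260 at its brightest probe set (log2 ratio 0.40) and of 50.4 and 75.5 at the next (0.58). Its dimmest probe set, at 7.50 and 1.93, was below the filter. Ifih1 and Ddx58 were thus on the same side as Tlr3 and Dhx58 but within 2-fold. The median log2 ratio of the 4 sensors was 0.98, and over the mean of all passing probe sets of each gene it was 0.72.

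None of the 16 signalling genes was called higher, and 1 was called lower, beside 4.96% and 3.45% of all genes that passed the filter. Downstream of the sensors, both adaptors had lower signals in siCPEB1. Mavs, the mitochondrial adaptor of the RIG-I-like receptors, went from 296 to 234 and at its other probe set from 400 to 312, with log2 ratios of -0.34 and -0.36. Ticam1, the adaptor of TLR3, went from 67.4 to 53.3 (log2 ratio -0.34). These ratios are close to the spread between probe sets of a gene, which was 0.29 and 0.40 at these signals. Tmem173, the adaptor of cytoplasmic DNA sensing, had signals of 117 and 111 (log2 ratio -0.072) and of 131 and 105 (-0.33).

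The kinase Tbk1, which phosphorylates IRF3, went from 492 to 760 (1.55-fold, log2 ratio 0.63), and a second probe set gave 1014 and 1468 (0.53), in both cases more than 2 times the spread of 0.24. Ikbke, the related kinase, had signals of 3.79 and 0.926, both far below the array medians, so no fold is given. Of the interferon regulatory factors, Irf1 went from 247 to 355 (log2 ratio 0.52) and Irf2 from 240 to 384 (0.67). Irf3 gave log2 ratios of 0.66, 0.13, 0.18 and 0.071 at its 4 probe sets, so that its value depends on the probe set. Irf7, the factor most strongly induced by interferon itself, had signals of 164 and 158 (log2 ratio -0.055), a difference well within the spread. Irf9, the DNA-binding part of the complex that interferon activates, went from 275 to 337 (0.29), and its partner Stat2 from 136 to 159 (0.23) and from 72.6 to 90.8 (0.32).

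The receptor genes lay on both sides of 0. Of the type I receptor, Ifnar1 had signals of 170 and 201 (log2 ratio 0.24) and, at a probe set near the array median, of 23.2 and 11.7, so that the mean of both turned its log2 ratio to -0.38. Ifnar2 had log2 ratios of -0.10, -0.069 and 0.031 at its 3 probe sets, and Tyk2, the kinase bound to IFNAR1, went from 116 to 137 (0.24). Both genes of the interferon gamma receptor had lower signals. Ifngr2 went from 340 to 153 (2.22-fold lower, log2 ratio -1.15, spread 0.29), but its other probe set went from 81.3 to 64.1 (-0.34). Ifngr1, the ligand-binding chain, had 1 probe set and went from 211 to 115 (1.83-fold lower, log2 ratio -0.87, spread 0.32). With the mean of both probe sets the log2 ratio of Ifngr2 was -0.75, no longer past 2-fold. The median over the 15 signalling genes that passed the filter was 0.23, it was 0.085 over all 16, and it was -0.048 when each gene was averaged over its passing probe sets, so no direction is given for the signalling genes as a group.

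Of the 27 effectors with a probe set, 5 were called higher and 1 was called lower, and 16 (59.3%) had a log2 ratio above 0. Over the array, 4.96% of the genes that passed were called higher and 3.45% lower. A log2 ratio above 0 was found for 53.9% of all genes. The guanylate-binding proteins, large GTPases induced by interferon gamma and type I interferon that attack the compartments of intracellular pathogens, were among the higher ones. Gbp3 went from 103 to 239 (2.32-fold, log2 ratio 1.21, spread 0.32). Gbp2 had the largest ratio of all members, with signals of 5.54 and 37.7 (log2 ratio 2.77), but the siControl signal lay below the array median. With that signal set at the median the increase was at least 1.79-fold, and the other probe set, at 6.94 and 20.6, was below the median in both arrays. The call for Gbp2 therefore depended on a siControl value too dim to be measured well.

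Trim30a, a TRIM protein that restrains Toll-like receptor signalling in mice, went from 41.4 to 129 (3.12-fold, log2 ratio 1.64), and a second probe set gave 20.5 and 79.4 (at least 3.77-fold). A further probe set, annotated to Trim30a and Trim30d together and not used, had signals of 10.2 and 26.3. Parp14, an ADP-ribosyltransferase, went from 55.5 to 129 (2.32-fold, log2 ratio 1.21, spread 0.40), with a second probe set below the filter at 3.83 and 9.23. Samd9l, an antiviral and growth-restraining factor, went from 57.6 to 139 (2.41-fold, log2 ratio 1.27, spread 0.40). The ratios of these 3 genes lay in the same direction at every probe set they have.

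The IFIT proteins, which bind foreign RNA and block its translation, gave unequal ratios. Ifit2 had signals of 161 and 314 (1.96-fold, log2 ratio 0.97), just inside 2-fold, and Ifit1 of 333 and 454 (0.45). Ifit3 had signals of 36.1 and 34.3 (-0.076), although its promoter window holds the ISRE core at 2 places, as does that of Ifit1. Rsad2, which encodes the antiviral enzyme viperin, went from 693 to 1135 at its brightest probe set (log2 ratio 0.71) and gave 0.48 and 0.090 at the others.

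The OAS family lay on both sides of 0. Oas1a, which makes the 2-5A messenger on binding double-stranded RNA, went from 608 to 856 (log2 ratio 0.49, spread 0.24). The OAS-like genes were lower. Oasl1, which in mice represses the translation of Irf7, went from 264 to 104 (2.55-fold lower, log2 ratio -1.35, spread 0.32), and Oasl2 from 209 to 131 (1.60-fold lower, -0.67). Neither OAS-like gene held the ISRE core or the STAT-type site in its promoter window. Oas1a, Ifit3, Ifitm2, Ifitm3 and the Gbp genes have close paralogs, so their probe sets may read more than 1 gene.

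Several textbook interferon-induced genes showed almost equal signals. Mx1, the GTPase that blocks influenza virus, had signals of 51.1 and 49.9 (log2 ratio -0.033), Isg20, an exonuclease, of 129 and 118 (-0.13), and Bst2, which tethers budding virus to the cell surface, of 1325 and 1211 (-0.13). Ifi27 had signals of 3491 and 3658 (0.067). Mx2, at 6.19 and 18.3, was below the median in both arrays. Usp18, the protease that removes ISG15 and limits interferon signalling, went from 383 to 523 (0.45). For Isg15 there was only the probe set shared with Gm9706, which was not used. It went from 1673 to 949 (log2 ratio -0.82).

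Ifitm2 and Ifitm3, membrane proteins that hinder viral entry, went from 1642 to 2441 (log2 ratio 0.57) and from 4622 to 5620 (0.28). Ifi35 had log2 ratios from 0.43 to 0.57 at 3 probe sets, and Xaf1 of 0.48 and 0.50 at 2. These genes were on the higher side within 2-fold, and the ratios of Ifitm2, Ifitm3, Ifi35 and Xaf1 exceeded the spread between probe sets of a gene at the probe set used.

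Other effectors, several of which bind RNA, gave ratios on both sides of 0. Eif2ak2, which encodes the kinase PKR that stops translation on binding double-stranded RNA, had log2 ratios of -0.049, 0.40 and 0.13 at its 3 probe sets, the second of them beyond the spread of 0.32. Adar, the editing enzyme that marks cellular double-stranded RNA as self, had log2 ratios of -0.20, 0.15 and 0.23, and Zc3hav1, the zinc finger antiviral protein, had signals of 962 and 841 (-0.19). The ubiquitin ligase Trim25, an activator of RIG-I, ranged from -0.32 to 0.097 at 3 probe sets, and the antibody receptor Trim21 had -0.22 and 0.0062. The median log2 ratio of the effectors was 0.45 over the 27 genes and 0.36 over the 26 that passed, beside 0.059 and 0.045 over all genes.

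**Figure D2:**
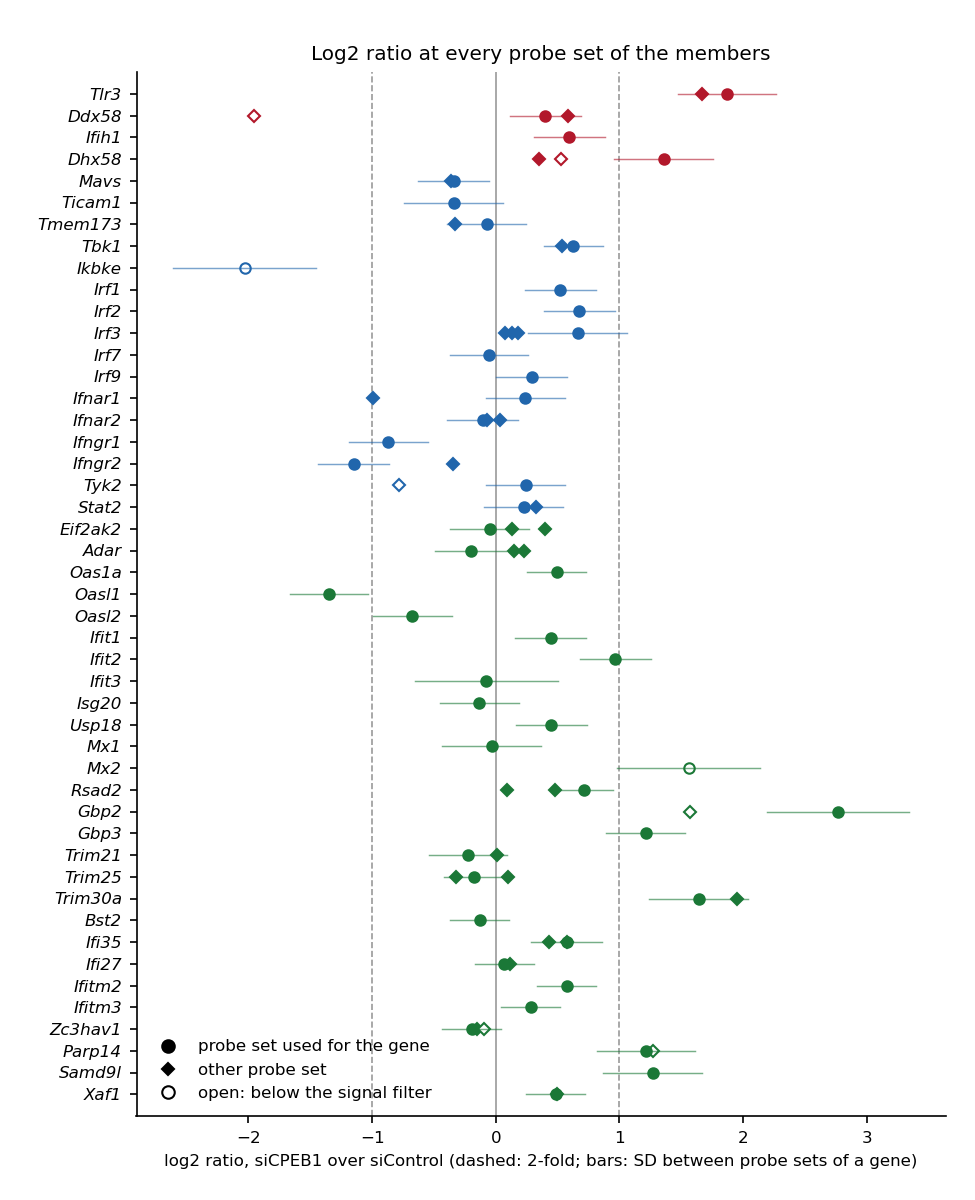
Log2 ratio of siCPEB1 over siControl (x axis) at each of the 82 probe sets of 47 genes, with circles for the probe set used, diamonds for the others and open symbols below the signal filter. Bars give the SD between probe sets of a gene at that signal, and dashed lines mark 2-fold. Tlr3 and Trim30a lie beyond 2-fold at both of their probe sets, whereas Dhx58 and Ifngr2 do so at 1 only.

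Members with and without the ISRE core were set beside each other as a description. Of 16 members with the core and a measured ratio, 12 had a log2 ratio above 0, 3 were called higher and none lower, with a median of 0.47 and a range from -0.22 to 2.77. One of these calls and the top of the range belong to Gbp2, known only as at least 1.79-fold higher, and without it 2 were called higher (Gbp3 and Trim30a). Of 24 members with a window but no core, 11 had a log2 ratio above 0, 2 were called higher (Tlr3 and Samd9l) and 2 lower (Ifngr2 and Oasl1), with a median of -0.080. Dhx58 and Parp14 had no window at hand. Over the array, 53.9% of all genes had a log2 ratio above 0. Of those that passed the filter, 4.96% were called higher and 3.45% lower. The members without the core include Ikbke, which was below the filter. The core stood in 13 of 23 effectors but in 2 of 15 signalling genes, so members with and without it also differ in role. Both groups reached from below 0 to more than 3-fold higher, so they overlapped widely.

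**Figure D3:**
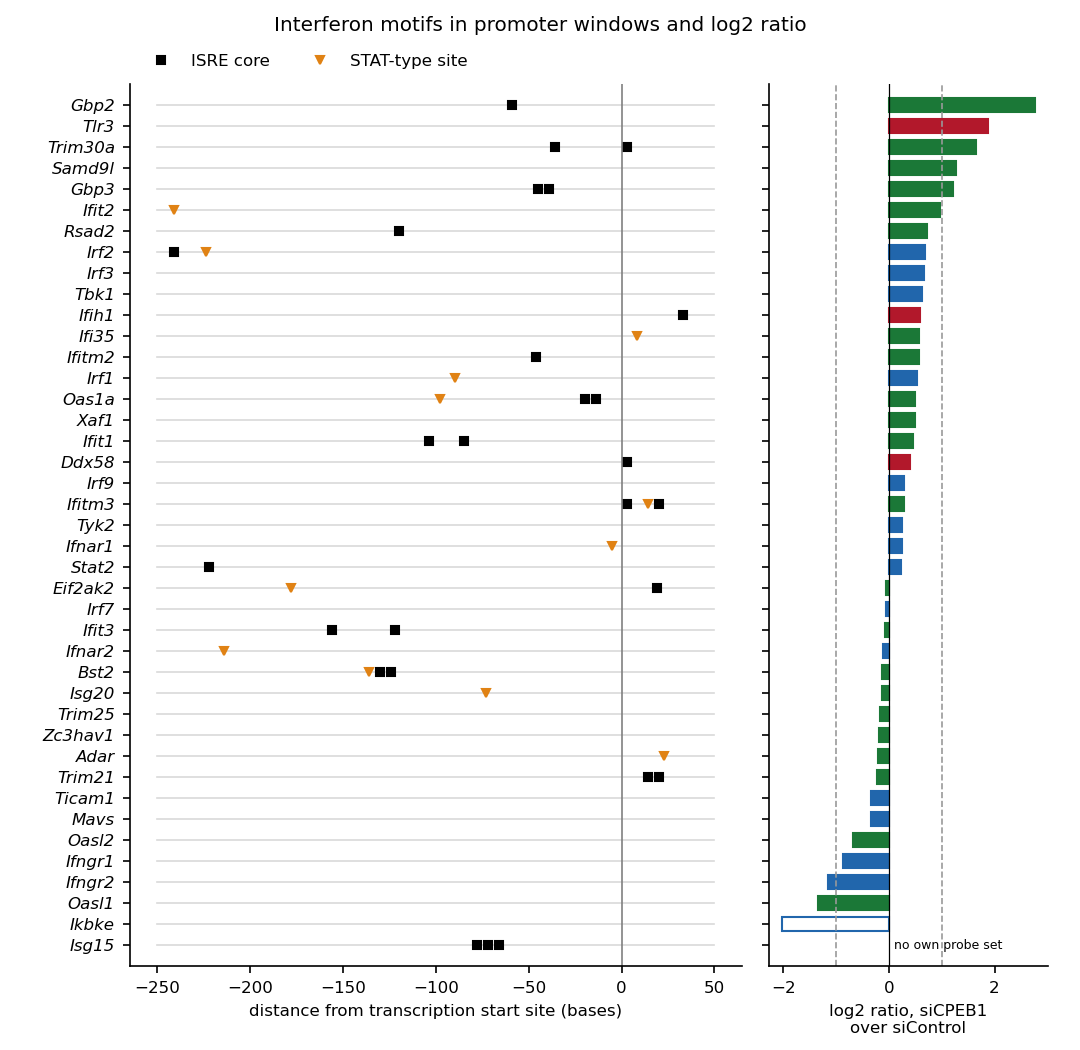
Position of ISRE cores (squares) and STAT-type sites (triangles) from 250 bases before to 50 bases after the start site in the promoter windows of 41 members (left), and their log2 ratio (right; red sensors, blue signalling genes, green effectors, open bar below the signal filter). Members are ordered by log2 ratio. Gbp2, Trim30a and Gbp3 near the top carry the ISRE core within 60 bases before the start site, whereas Tlr3 and Samd9l, also near the top, carry neither motif. Oasl1, Oasl2, Ifngr1 and Ifngr2 near the foot carry neither motif as well.

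A further 102 genes of the pathway that are not members were taken as a list, and 87 had a probe set of their own. The median log2 ratio was 0.26 over the 87. Of these, 62 passed the filter, and 8 were called higher and 2 lower, beside 4.96% and 3.45% of all genes that passed. Zbp1, Ifi47, Sp100, Rnf135 and Socs1 were among those called, but each had a signal below its array median. Their folds are thus known only as bounds under 2-fold. These counts depended on the treatment of dim signals, and so did the shares over the array. After adding 16 to both signals, 3 were higher and 0 lower, beside 2.49% and 2.05% of all genes that passed. When both signals had to reach the median, 4 were higher and 1 lower, beside 2.996% and 2.84%. With no filter, 17 of the 87 were higher and 6 lower, beside 12.6% and 9.38% of all genes. No interferon gene passed the filter. Ifnb1 had signals of 6.85 and 11.5, and the 7 interferon genes measured were all below the median in both arrays. Jak1, the kinase shared by the receptors, went from 480 to 542 (log2 ratio 0.18).

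The higher genes included more interferon-induced GTPases. Gbp7 went from 63.0 to 162 (log2 ratio 1.36), and a second probe set gave 30.5 and 71.0 (1.22). Iigp1, an immunity-related GTPase, went from 23.9 to 51.1 (1.09), and Gbp6 from 31.3 to 64.5 (1.05). In contrast, the immunity-related GTPase Irgm2 had a log2 ratio of -0.83. Trim12c, a TRIM gene, went from 76.5 to 175 (1.19). Zbp1, a sensor of Z-form nucleic acid, Ifi47, Sp100 and Rnf135, a ubiquitin ligase for RIG-I, had siControl signals from 5.78 to 17.7, below the array median. With those signals set at the median they were at least 1.53-, 1.39-, 1.76- and 1.22-fold higher.

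The lower genes were Cxcl10, an interferon-induced chemokine, which went from 552 to 271 (2.04-fold lower, log2 ratio -1.03), and Socs1, an inhibitor of JAK signalling, which went from 37.6 to 14.9 (at least 1.74-fold lower). Neither was called with 16 added to both signals, and Socs1 was not called when both signals had to reach the median. Among the other effectors of this list, 30 of the 39 that passed the filter had a log2 ratio above 0 (median 0.35). Of the signalling genes, 7 of 18 did (median -0.023), and of all genes that passed 53.8% did. With no filter, 36 of 51 effectors and 9 of 21 signalling genes had a log2 ratio above 0, beside 53.9% of all genes. Of the 5 nucleic acid sensors of this list that passed, 2 had a log2 ratio above 0 (median -0.30), Zbp1 and the DNA sensor Cgas (0.35). Tlr9, Aim2 and Prkra had log2 ratios of -0.86, -0.56 and -0.30. The siCPEB1 signal of Tlr9, at 13.0, lay below the array median, so Tlr9 is known only as at least 1.08-fold lower.

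**Figure D4:**
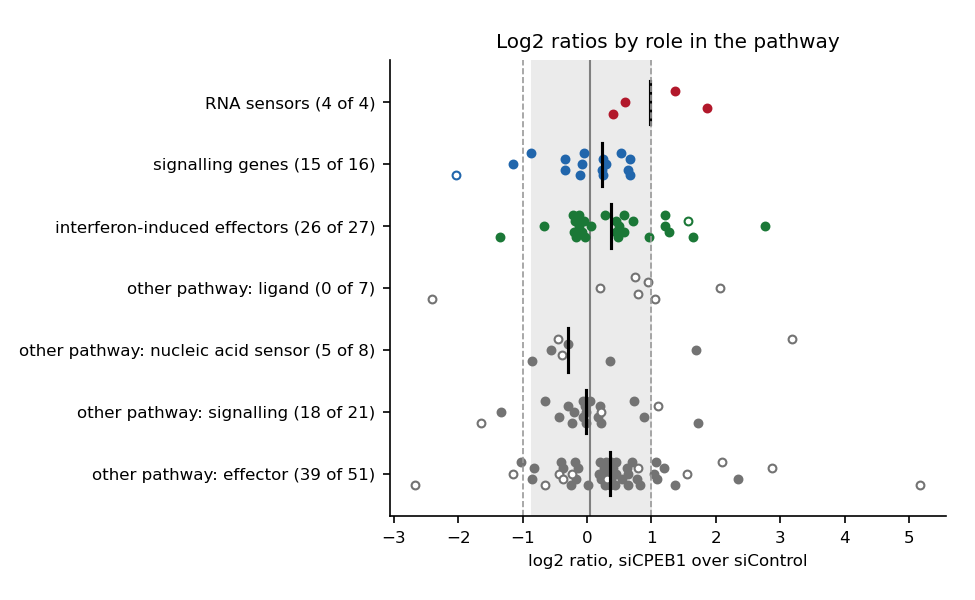
Log2 ratios (x axis, siCPEB1 over siControl) of single genes grouped by role, with the number that passed the signal filter of the number measured in parentheses, filled points for genes that passed, open points for those that did not and black bars for the median of those that passed. The grey band spans the 5th to 95th percentile of the 11554 genes that passed over the array (-0.86 to 0.996), the grey line is their median (0.045) and dashed lines mark 2-fold. Tlr3, Dhx58, Zbp1, Rnf135 and effectors of both lists lie right of the band among the filled points. Of these points, those of Zbp1, Rnf135, Gbp2, Ifi47 and Sp100 rest on siControl signals below the array median. Their increases are known only as at least 1.53-, 1.22-, 1.79-, 1.39- and 1.76-fold. The points of all interferon ligands are open.

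Marker genes of other cell types were read in the same arrays, because immune cells carry high levels of many of these genes. Of 11 haematopoietic markers, 8 were below the median in both arrays, among them Cd68 at 7.86 and 9.25, Itgam at 9.81 and 7.76 and Lyz2 at 7.24 and 20.8, and none was listed at 0. Csf1r, at 39.5 and 43.1, and Laptm5, at 26.8 and 36.0, were above the median in both arrays. A log2 ratio above 0 was found for 8 of the 11, beside 53.9% of all genes. Their summed signal was 121 in siControl and 165 in siCPEB1. Tyrobp, at 9.62 and 22.8, was called higher, but its siControl signal lay below the array median. It is known only as at least 1.08-fold higher. The summed signals of the endothelial markers were 74.6 and 116, of the glial ones 66.8 and 116 and of the fibroblast ones 149 and 107. The brightest fibroblast marker in siControl, Pdgfrb, went from 97.1 to 26.9, whereas 4 of the 6 fibroblast markers had a log2 ratio above 0. Markers of sympathetic neuroblasts summed to 10765 and 15107. Of these 12 markers, 9 passed the filter, and 5 were called higher and none lower. Over the array, 4.96% of the genes that passed were called higher and 3.45% lower. Isl1 went from 224 to 1036, whereas Stmn2 went from 2556 to 2080 and Tubb3 from 2341 to 2623. The part of these differences in the ratios of the interferon genes was not tested, and in such bulk RNA fewer cells of a type and less RNA per cell cannot be told apart.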

How the data were processed

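Total RNA from siControl- and siCPEB1-transfected Neuro2a cells was hybridized to 1 Mouse Genome 430 2.0 array each. The submitters' processing notes name MAS5 and Affymetrix Expression Console for the probe set signals, which the authors deposited as linear intensity values. Scaling target and software version are not given in the sources used here. Precision is limited by having only 1 array for each condition.

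Log2 ratios of siCPEB1 over siControl were taken from the deposited intensities without further scaling, for 45037 probe sets after leaving out 64 control probe sets. Probe sets were named from the platform's annotation table, with older symbols replaced by RefSeq names (GRCm38.p6) that share a gene identifier: 34945 probe sets had 1 symbol, 932 several and 9160 none listed, and only the first were named. Dim signals with a bright partner were set at the array median for bounds. All members were to be described, at every probe set where any was past 2-fold. Of the other pathway list, Ifnb1, Jak1 and the genes past 2-fold were to be named, and Irgm2, Cgas, Tlr9, Aim2, Prkra and the marker genes given with values were chosen after their values were seen. One gene that this rule names is not reported here. The members and lists were chosen with earlier results of these data known. Alternatives were other scalings (median, 75th percentile, quantile, loess with span 0.3), 16 added to both signals, 3 other filters and other choices of probe set. The steps were tested on simulated data. Promoters came from RefSeq. Python 3.11.15, numpy 2.4.6, pandas 2.3.3, statsmodels 0.14.6 and matplotlib 3.10.9 were used.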

Additional observations from a re-analysis of the deposited data

How the results depend on the processing

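Across the 10 alternatives, Tlr3, Trim30a, Gbp3, Parp14 and Samd9l were called higher in all 10 and Oasl1 lower in all 10. Gbp2 was called in 8, Dhx58 in 9 and Ifngr2 in 9. The number of members called higher ranged from 6 to 8. Members called lower numbered 1 when each gene was averaged over its passing probe sets, which also gave medians of 0.72 for the sensors and -0.048 for the signalling genes. With no filter, the medians of signalling genes and effectors were 0.085 and 0.45, and of the other pathway genes 17 were higher and 6 lower. The effector median was 0.28 when both signals had to reach their array's median and when the mean log2 signal was filtered. Under those filters 4 and 5 other pathway genes were higher and, under the first, 1 was lower. With 16 added to both signals, 3 other pathway genes were higher and 0 lower. Of 327 values for single members under alternatives, 8 moved by more than the spread between probe sets and 319 did not, and no called member changed sign. Averaging over probe sets turned the sign of Ifnar1 (from 0.24 to -0.38), Adar (from -0.20 to 0.058) and Eif2ak2 (from -0.049 to 0.16), none of them called. Over all genes, 12.6% were more than 2-fold higher and 9.38% lower with no filter, against 2.49% and 2.05% with 16 added. The shares were 2.996% and 2.84% when both signals had to reach the median. They were 3.91% and 3.101% when the mean log2 signal was filtered. Leaving out a replicate was not possible with 1 array per condition. No paired analysis was possible because each condition has 1 array.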
